A study of Mus musculus with 2 samples.

Results

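The collagen genes were compared between 2 spatially barcoded sections of mouse intestine. The family was taken as every gene symbol of the form Col, number, a, number with 20 or more counts over both sections. Of 54658 symbols measured, 44 have that form and 40 reached the minimum. They comprise 10 fibrillar collagens, 6 basement membrane collagens and 24 other collagens. The members were thus chosen by their summed counts over both sections, so the presence of a gene among the 40 is not a result. Just inside it lay Col9a3 with 47 counts and Col26a1 with 55. Just outside lay Col10a1 with 12 counts and Col2a1 with 11. Col4a5 and Col4a6, chains of the basement membrane network encoded on chromosome X, were listed at 0 in both sections, as were all 2041 symbols placed on that chromosome.

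One section is labelled as from WT (wild-type) mice and the other as from DPF2 KO (knockout) mice, and both followed 10 Gy of X-ray irradiation. The tissue is labelled intestine, fresh frozen and cut at 10 µm. Neither genotype has an unirradiated section, and the labels give no stretch of gut, time after irradiation, age, strain, deleted part of the gene or tissue of deletion. The study's title asks what DPF2, a subunit of the BAF chromatin remodelling complex, does in radiation injury of the intestine.

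Collagens are the main structural proteins of the extracellular matrix, built from chains that wind into a triple helix. Fibrillar collagens form the tension-bearing fibrils of the submucosa and lamina propria and are made mostly by fibroblasts. Basement membrane collagens form the sheet below the epithelium and around vessels and muscle cells. The other collagens sit on fibrils, span cell membranes, or form beaded filaments, anchoring fibrils and short-chain networks.

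The WT-labelled section held 50970 barcodes and 39824941 counts, and the KO-labelled section held 88056 barcodes and 89754886 counts. A median of 721 counts was found per barcode in the first and 932 in the second. The array used the same barcode positions for both, since 45557 barcode names occurred in both sections at the same position. Levels are given in CPM (counts per 1000000 counts of the section) and differences as log2 ratios, KO-labelled over WT-labelled. With 1 section per genotype there was no replicate and no test, so the differences are between these sections. The 95% intervals cover counting error only. The Dpf2 RNA stood at 23.6 CPM in the WT-labelled and 26.0 CPM in the KO-labelled section, so it was not lower in the latter. Since the deleted part of the gene and the tissue of deletion are not given, this level cannot check the label. The genotypes are named as labelled throughout. The tissue content of the sections also differed. The summed level of 18 villus enterocyte markers was 627 CPM in the WT-labelled section and 38979 CPM in the KO-labelled section, and that of 12 Paneth cell markers of the crypt was 95583 and 5893 CPM. Neutrophil markers stood at 618 and 25.6 CPM, macrophage markers at 632 and 161 CPM, endothelial markers at 642 and 395 CPM, smooth muscle markers at 1020.0 and 2473 CPM, adipocyte markers at 243 and 1881 CPM, and fibroblast (stroma) markers at 1098 and 1130 CPM. The near-equal stroma sums hid differences in both directions. Of the 18 stroma markers, 8 had a log2 ratio above 0 and 10 below, with a median of −0.36. Gsn (364 and 513 CPM) and Fbln1 (75.2 and 290.0 CPM) were higher in the KO-labelled section. Dcn (228 and 91.1 CPM) and Pdgfrb (56.5 and 15.5 CPM) were lower. The part of tissue content in the collagen differences was not tested beyond the comparison of like-marked areas given further on. In such summed counts, fewer cells of a type and less RNA per cell cannot be told apart.

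Collagen RNA was lower in the KO-labelled section. The 40 genes summed to 1572 CPM in the WT-labelled section and 665.5 CPM in the KO-labelled section, a log2 ratio of −1.24 (−1.26 to −1.22). The log2 ratio was below 0 for 33 of the 40 members, where 59.3% of the 20709 genes with 20 or more counts were below 0. At least 2-fold lower were 14 members (23.8% of all genes), and at least 2-fold higher was 1 member (15.4% of all genes). The median log2 ratio of the members was −0.60, and that of all genes was −0.25. Scaling by the median of ratios in place of the total moved the median of all genes to −0.07 and the shares of all genes 2-fold higher and lower to 18.4% and 19.1%. Under that scaling 10 members were 2-fold lower and the family sum stood at −1.06. Each section was also cut by position into 4 parts of similar barcode number, which are not replicates but show the spread within a section. All 4 parts of the KO-labelled section lay below all 4 of the other for 20 members (38% of all genes) and above them for 3 members (25.4% of all genes). Those 3 were Col8a2, Col14a1 and Col19a1.

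**Figure D1:**
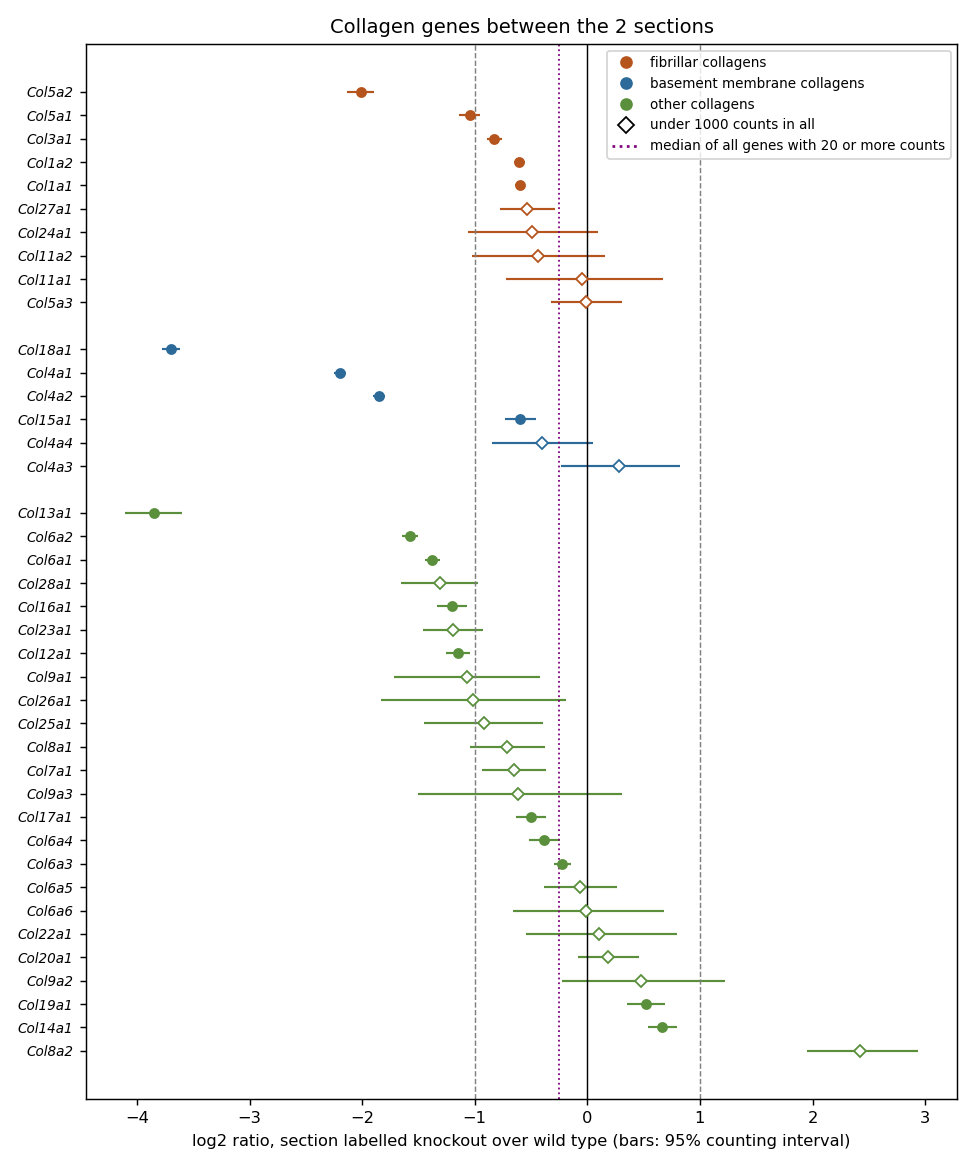
Log2 ratio of each of the 40 collagen genes (x axis, KO-labelled over WT-labelled), grouped as fibrillar, basement membrane and other; bars are 95% counting intervals, open diamonds have under 1000 counts in all, and dashed lines mark 2-fold. Col13a1 at −3.85 and Col18a1 at −3.70 lie farthest to the left and Col8a2 at 2.42 farthest to the right, while the dotted line marks the median of all genes at −0.25.

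The basement membrane collagens showed the largest summed difference of the 3 groups. Their sum was 646 CPM in the WT-labelled section and 131.0 CPM in the KO-labelled section, a log2 ratio of −2.30 (−2.33 to −2.27). They made up 41.1% (40.7 to 41.5, Clopper-Pearson) of all collagen counts in the first section and 19.7% (19.36 to 20.001) in the second. Col18a1, the core of a basement membrane proteoglycan whose end fragment is endostatin, was measured at 211 CPM (8405 counts) against 16.3 CPM (1459 counts). The 4 parts of the WT-labelled section held 186, 197, 223 and 248 CPM, and those of the KO-labelled section held 12.1, 16.4, 17.7 and 18.6 CPM. The 2 sets of parts were thus far apart, and the level was 12.98 times (12.3 to 13.7) higher in the WT-labelled section. Col15a1, its closest relative, stood at 18.1 and 12.01 CPM, a log2 ratio of −0.59 (−0.73 to −0.46).

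Col4a1 and Col4a2 encode the chains that wind together into the type IV network found in every basement membrane. Col4a1 (chromosome 8, 11198423 to 11312889 on GRCm38) was measured at 249.5 CPM against 54.4 CPM, with parts of 222, 223, 274 and 291 CPM against 41.2, 50.6, 53.5 and 71.3 CPM. Col4a2 (chromosome 8, 11312805 to 11449287) was measured at 165 CPM against 45.7 CPM, with parts of 139, 155, 178 and 194 CPM against 34.4, 41.6, 44.4 and 62.4 CPM. Neither gene's parts overlapped between sections, and the log2 ratios were −2.20 (−2.25 to −2.15) and −1.85 (−1.91 to −1.79). Both genes lie head to head, their RefSeq start sites 21 bases apart on opposite strands, and their windows from 250 bases before to 50 bases after the start share 78 bases. These windows are shown because both genes were lower and share a start region. Capitals mark the shared stretch, the sequences are from RefSeq on GRCm38.p6, and each is written 5′ to 3′ on the gene's own strand. The Col4a1 window is chr8:11312777-11313076 on the minus strand and the Col4a2 window is chr8:11312555-11312854 on the plus strand.
Col4a1: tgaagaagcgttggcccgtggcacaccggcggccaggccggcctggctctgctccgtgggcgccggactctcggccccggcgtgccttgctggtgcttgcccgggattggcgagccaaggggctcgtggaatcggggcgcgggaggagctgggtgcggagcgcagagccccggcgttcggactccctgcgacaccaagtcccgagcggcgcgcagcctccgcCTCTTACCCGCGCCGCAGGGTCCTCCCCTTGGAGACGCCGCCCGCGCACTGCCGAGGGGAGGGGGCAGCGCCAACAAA
Col4a2: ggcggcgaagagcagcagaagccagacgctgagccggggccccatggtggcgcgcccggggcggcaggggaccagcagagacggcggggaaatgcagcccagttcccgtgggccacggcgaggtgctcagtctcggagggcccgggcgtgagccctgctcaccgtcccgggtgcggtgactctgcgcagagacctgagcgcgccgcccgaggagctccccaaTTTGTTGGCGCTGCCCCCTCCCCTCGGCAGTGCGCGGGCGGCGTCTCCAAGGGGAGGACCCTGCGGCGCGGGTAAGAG
The annotated genes overlap at this end and strand-specific counting is not stated, so some reads there could belong to either gene. Counts of Col4a1 were 1.51 times (1.47 to 1.56) those of Col4a2 in the WT-labelled section and 1.19 times (1.14 to 1.24) in the KO-labelled section, and the values of the 4 parts, 1.44 to 1.59 and 1.14 to 1.28, did not overlap. Such a ratio of counts is not corrected for length and is compared between sections only. The less abundant type IV chains Col4a3 and Col4a4, which also start head to head, had intervals that held 0. Col4a3 had 43 and 118 counts, a log2 ratio of 0.28 (−0.23 to 0.82), and Col4a4 had 68 and 116 counts, a log2 ratio of −0.40 (−0.85 to 0.05).

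The fibrillar collagens were lower by less. Their sum was 502.0 CPM in the WT-labelled section and 299.98 CPM in the KO-labelled section, a log2 ratio of −0.74 (−0.77 to −0.72), and their share of collagen counts was 31.9% (31.6 to 32.3, Clopper-Pearson) in the first section and 45.1% (44.7 to 45.5) in the second. All 10 measured members had a ratio below 0 (59.3% of all genes), with a median of −0.57. Of these, Col5a3 at −0.01 and Col11a1 at −0.04 had intervals that held 0 and changed sign under other scalings. The intervals of Col24a1 (−1.06 to 0.09) and Col11a2 (−1.02 to 0.15) held 0 as well. Col1a1 and Col1a2, the chains of type I collagen, stood at 166 and 151 CPM against 109 and 99.5 CPM, log2 ratios of −0.60 and −0.61. The counts of Col1a1 were 1.10 times those of Col1a2 in both sections. Col3a1, the chain of type III collagen of distensible tissues, stood at 91.3 and 51.5 CPM, a log2 ratio of −0.83 (−0.89 to −0.76). Its parts held 72.4 to 108 CPM in the WT-labelled section and 35.2 to 70.8 CPM in the other, so they came close without overlapping.

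Type V collagen, which starts type I fibrils and sets their width, differed by more than the major fibril chains. Col5a2 stood at 39.1 CPM against 9.70 CPM, with parts of 32.9 to 49.6 CPM against 7.72 to 12.1 CPM, and a log2 ratio of −2.01 (−2.13 to −1.89). Col5a1 stood at 42.5 and 20.6 CPM, a log2 ratio of −1.05 (−1.14 to −0.95). These were the only 2 of the 10 fibrillar members at least 2-fold lower, a share near that of all genes (23.8%). Counts of Col5a2 were 0.921 times those of Col5a1 in the WT-labelled section and 0.471 times in the KO-labelled section, and the parts, at 0.844 to 0.988 and 0.415 to 0.533, did not overlap. The third type V chain, Col5a3, stood at 3.09 and 3.06 CPM.

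**Figure D2:**
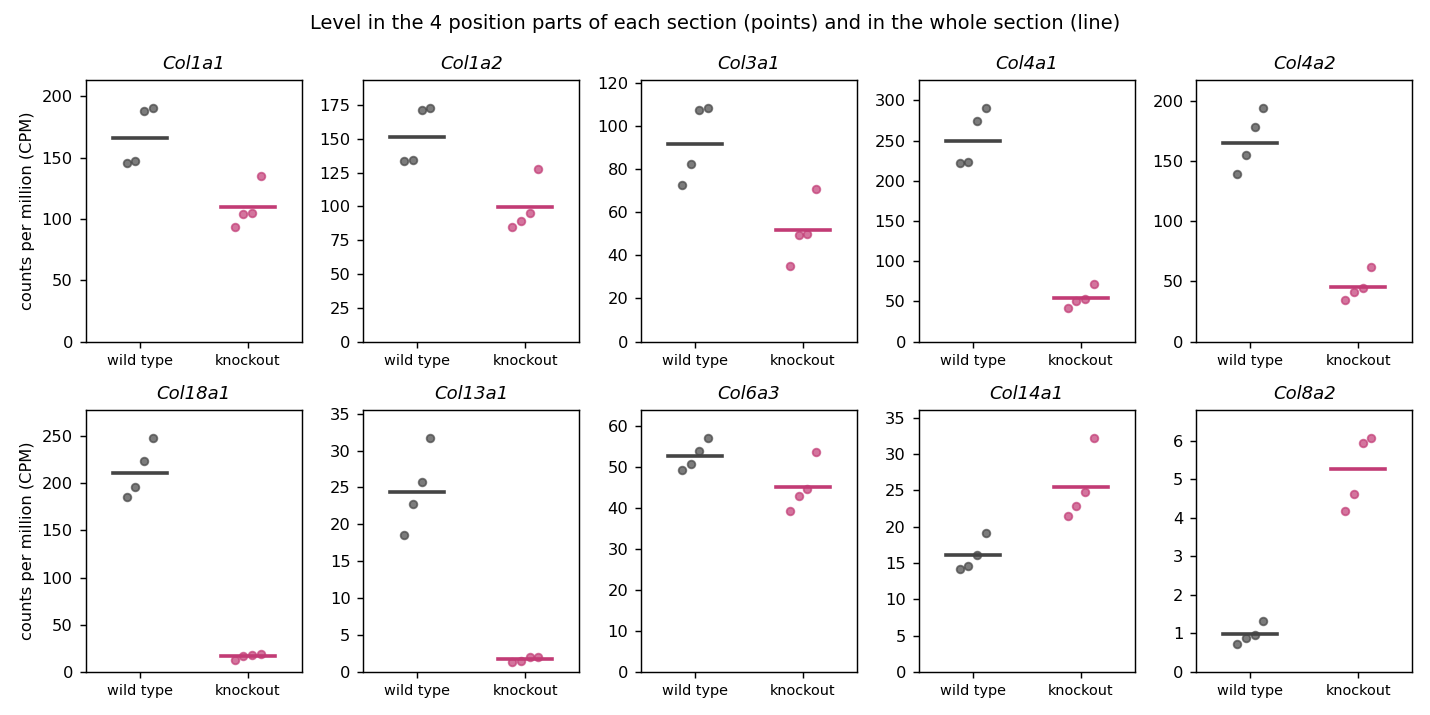
Level in CPM (y axis) of 10 collagen genes in the 4 position parts of each section (points) and in the whole section (line); parts are not replicates. Col18a1 and Col13a1 show the widest gaps, the parts of Col6a3 overlap, and Col14a1 and Col8a2 lie higher in the KO-labelled section.

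Among the other collagens, 9 of 24 were at least 2-fold lower (23.8% of all genes) and 1 was at least 2-fold higher (15.4% of all genes), with a sum of 424 and 234 CPM and a median log2 ratio of −0.63. The transmembrane collagens, which span the cell membrane and shed their ectodomains, were all below 0 (59.3% of all genes), from −3.85 to −0.50. Col13a1 (chromosome 10, 61838234 to 61979206), found at cell-matrix adhesions, was measured at 24.4 CPM (970 counts) against 1.69 CPM (152 counts). Its parts held 18.6, 22.7, 25.7 and 31.7 CPM in the WT-labelled section and 1.28, 1.47, 2.01 and 2.04 CPM in the other. The log2 ratio of −3.85 (−4.10 to −3.60) was the lowest of the 40 members. Col23a1 stood at 6.001 and 2.63 CPM, a log2 ratio of −1.19, and Col17a1, a hemidesmosome protein that ties epithelial cells to the basement membrane, stood at 19.3 and 13.6 CPM, a log2 ratio of −0.50.

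Type VI collagen forms beaded filaments near cells, mainly from the chains Col6a1, Col6a2 and Col6a3. The chains did not differ alike. Col6a1 stood at 99.3 and 38.3 CPM and Col6a2 at 96.7 and 32.5 CPM, log2 ratios of −1.38 (−1.44 to −1.31) and −1.58 (−1.65 to −1.51). Col6a3 stood at 52.6 and 45.1 CPM, a log2 ratio of −0.22 (−0.30 to −0.15), with parts of 49.3 to 57.1 CPM and 39.3 to 53.7 CPM that overlapped. Counts of Col6a3 were accordingly 0.529 times those of Col6a1 (0.443 to 0.603 over the parts) in the WT-labelled section and 1.18 times (1.10 to 1.26) in the KO-labelled section. Of the chains that resemble Col6a3, Col6a4 stood at 17.2 and 13.2 CPM, a log2 ratio of −0.38. Col6a5 and Col6a6 stood at log2 ratios of −0.07 and −0.01, and both took either sign under other scalings.

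The collagens that decorate fibril surfaces, known as FACIT collagens, went both ways. Col12a1 and Col16a1 were lower, at 34.1 and 15.4 CPM and at 23.7 and 10.3 CPM, log2 ratios of −1.15 and −1.20. Col14a1 was higher, at 16.045 and 25.4 CPM, a log2 ratio of 0.66 (0.54 to 0.79), with parts of 14.2 to 19.1 CPM and 21.5 to 32.2 CPM. Col19a1 was higher as well, at 9.29 and 13.3 CPM, a log2 ratio of 0.52 (0.35 to 0.69). The cartilage-type chain Col9a2 had 23 and 72 counts and an interval that held 0 (−0.22 to 1.22). Col9a1, with 41 and 44 counts, stood at −1.07 (−1.72 to −0.42).

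The short-chain collagen Col8a2, a network former of vessel walls and of the cornea, was the member with the highest ratio. It had 39 counts in the WT-labelled section and 472 in the KO-labelled section, 0.979 and 5.26 CPM, a log2 ratio of 2.42 (1.95 to 2.93). Its parts held 0.716, 0.866, 0.960 and 1.32 CPM against 4.18, 4.60, 5.93 and 6.07 CPM, so the sets did not overlap. Col8a1, its partner chain, stood at 3.26 and 1.99 CPM, a log2 ratio of −0.71 (−1.05 to −0.37). Col28a1, a minor collagen near peripheral glia, stood at 3.84 and 1.55 CPM, a log2 ratio of −1.31, and Col7a1, which forms the anchoring fibrils below squamous epithelia, at 4.39 and 2.80 CPM, a log2 ratio of −0.65.

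The RefSeq start windows of all members that had one were searched for short promoter elements on both strands. The elements were the GC box GGGCGG, the CCAAT box CCAAT and the TATA box TATAAA, which do not overlap one another in letters. Windows were found for 32 of the 40 members, 35 in all. The GC box occurred in 60% of the member windows and 35.7% of all 32851 windows of the same length, the CCAAT box in 34.3% and 37.4%, and the TATA box in 11.4% and 13.6%. The median GC content was 60.0% in the member windows and 52.7% in all windows. The windows of Col18a1 and Col13a1, the members with the lowest ratios, and of Col8a2, the member with the highest, are shown with matches in capitals. That of Col18a1 is the first of its 2 listed starts, chr10:77166481-77166780 on the minus strand, that of Col13a1 is chr10:61979059-61979358 on the minus strand, and that of Col8a2 is chr4:126286544-126286843 on the plus strand.
Col18a1: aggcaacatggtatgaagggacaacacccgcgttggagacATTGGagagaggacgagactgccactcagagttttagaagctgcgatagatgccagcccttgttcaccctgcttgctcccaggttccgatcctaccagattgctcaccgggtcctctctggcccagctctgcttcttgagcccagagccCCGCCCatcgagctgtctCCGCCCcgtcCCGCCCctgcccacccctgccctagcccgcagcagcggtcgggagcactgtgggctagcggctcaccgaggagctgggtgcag
Col13a1: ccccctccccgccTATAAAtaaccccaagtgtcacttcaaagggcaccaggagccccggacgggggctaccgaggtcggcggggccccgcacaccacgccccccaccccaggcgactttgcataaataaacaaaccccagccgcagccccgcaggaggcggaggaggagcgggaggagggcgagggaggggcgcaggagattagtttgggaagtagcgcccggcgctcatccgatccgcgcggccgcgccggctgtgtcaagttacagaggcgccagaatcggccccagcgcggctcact
Col8a2: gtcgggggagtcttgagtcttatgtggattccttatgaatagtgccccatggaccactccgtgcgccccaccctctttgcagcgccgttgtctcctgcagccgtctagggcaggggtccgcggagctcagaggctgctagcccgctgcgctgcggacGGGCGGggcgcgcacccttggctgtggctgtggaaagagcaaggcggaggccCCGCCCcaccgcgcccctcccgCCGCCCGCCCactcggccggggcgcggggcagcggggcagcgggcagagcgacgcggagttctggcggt
The Col18a1 window holds 3 GC boxes and 1 CCAAT box, the Col13a1 window 1 TATA box and the Col8a2 window 4 GC boxes. The other start of Col18a1 holds none of the 3 elements. A match is a description of the letters and not a site.

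Where the collagens lay within each section was described over squares with a side of 25 position units, a unit whose length is not stated. Squares with 20 or more barcodes and 5000 or more counts numbered 825 in the WT-labelled section and 1340 in the KO-labelled section. Squares in the top 10% of their own section by the summed level of a marker list were called marker-rich, and a square in several tops went to the list with its highest percentile. This gave 59 stroma, 55 muscle, 70 crypt and 81 villus squares in the WT-labelled section and 90, 98, 103 and 134 in the KO-labelled section. A square holds many cells of several types, and no marker list holds a collagen. The labels did not mean the same in both sections. Villus squares held 3148 CPM of villus markers in the WT-labelled section and 69935 CPM in the other, crypt squares 196115 and 19634 CPM of crypt markers, and stroma squares 1947 and 2855 CPM of stroma markers. Muscle squares held 3411 CPM of muscle markers in the WT-labelled section and 9729 CPM in the other. Stroma squares of the KO-labelled section also held 12938 CPM of adipocyte markers against 278 CPM in the other section, and 12 of those 90 lay outside the top 10% by adipocyte markers. Of the adipocyte markers, Adipoq and Lep were listed at 0 in the WT-labelled section, and Cfd, Plin1, Retn and Car3 had 8, 11, 7 and 16 counts. Fabp4 and Pnpla2 held 5319 and 2815 of the 9675 counts of the list there, so its top squares need not be rich in adipocytes.

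In the KO-labelled section the collagens were concentrated in stroma and muscle squares and low in villus squares. The fibrillar sum was 609 CPM in stroma squares and 698 CPM in muscle squares, log2 ratios of 1.15 (1.104 to 1.201) and 1.39 (1.34 to 1.43) over all other squares. It was 549 CPM in crypt squares, a log2 ratio of 0.98, and 100.4 CPM in villus squares, a log2 ratio of −1.69 (−1.78 to −1.60). Crypt squares of this section also held 4575 CPM of muscle markers, against 1002 CPM in those of the WT-labelled section. Here 56 squares lay in the tops of both muscle and crypt markers, and 34 in those of both stroma and crypt markers. In the WT-labelled section these numbers were 19 and 17. The part of this overlap in the crypt values was not tested. The basement membrane sum stood at 1.38 in stroma, 1.34 in muscle, 0.67 in crypt and −1.43 in villus squares, and the other collagens stood at 0.74, 0.96, 0.59 and −1.09. At least 2-fold higher were 16 of the 40 members in stroma squares (10.9% of all genes), 17 in muscle squares (14.7%), 6 in crypt squares (7.46%) and 0 in villus squares (1.76%). At least 2-fold lower in villus squares were 23 members (25% of all genes). At least 2-fold lower were 0 members in stroma squares (3%), 1 in muscle squares (3.44%), which was Col6a6, and 1 in crypt squares (2.46%), which was Col11a2. The count higher in stroma squares was 9 with squares of 50 units and also with the top 20% of squares, settings for which the share of all genes was not computed.

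The WT-labelled section had a flatter pattern. Its stroma and muscle squares also stood out less by their own markers. Stroma squares held 1947 CPM of stroma markers against 1018 CPM in squares of no kind, and 2855 against 906 CPM in the KO-labelled section. Muscle squares held 3411 against 776 CPM of muscle markers, and 9729 against 1531 CPM in the KO-labelled section. Villus squares went the other way, at 3148 against 348 CPM and 69935 against 38850 CPM. The part of this in the pattern was not tested. In the WT-labelled section the fibrillar sum was 778 CPM in stroma squares, 661 CPM in muscle squares, 568 CPM in crypt squares and 372 CPM in villus squares. Its log2 ratios over the other squares were 0.68, 0.43, 0.21 and −0.48. The basement membrane sum stood at 0.39, 0.08, −0.27 and −0.37 in these squares, and the muscle value took either sign under other settings, as did the fibrillar value in crypt squares. Of the 39 members with 20 or more counts in this section, at least 2-fold higher were 3 in stroma squares (7.83% of all genes), 3 in muscle squares (6.87%), 0 in crypt squares (0.698%) and 1 in villus squares (2.82%). The 3 in stroma squares were Col11a1, Col26a1 and Col8a2, on 6, 6 and 5 counts there, and with a minimum of 100 counts that number was 0. Col9a2 in stroma squares and Col6a6 in muscle squares had 0 counts and were given no ratio, since a floor of 3 counts there would lie above the level of the other squares. The 3 in muscle squares were Col8a1, Col8a2 and Col9a2, of which Col8a1 passed that minimum, and the 1 in villus squares was Col4a3 at 1.34. At least 2-fold lower were 0 members in stroma squares (4.55% of all genes), 2 in muscle squares (7.69%), 6 in crypt squares (12.2%) and 3 in villus squares (5.45%), of which Col7a1 stood at −1.45 and Col13a1 at −1.01 in crypt squares.

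**Figure D3:**
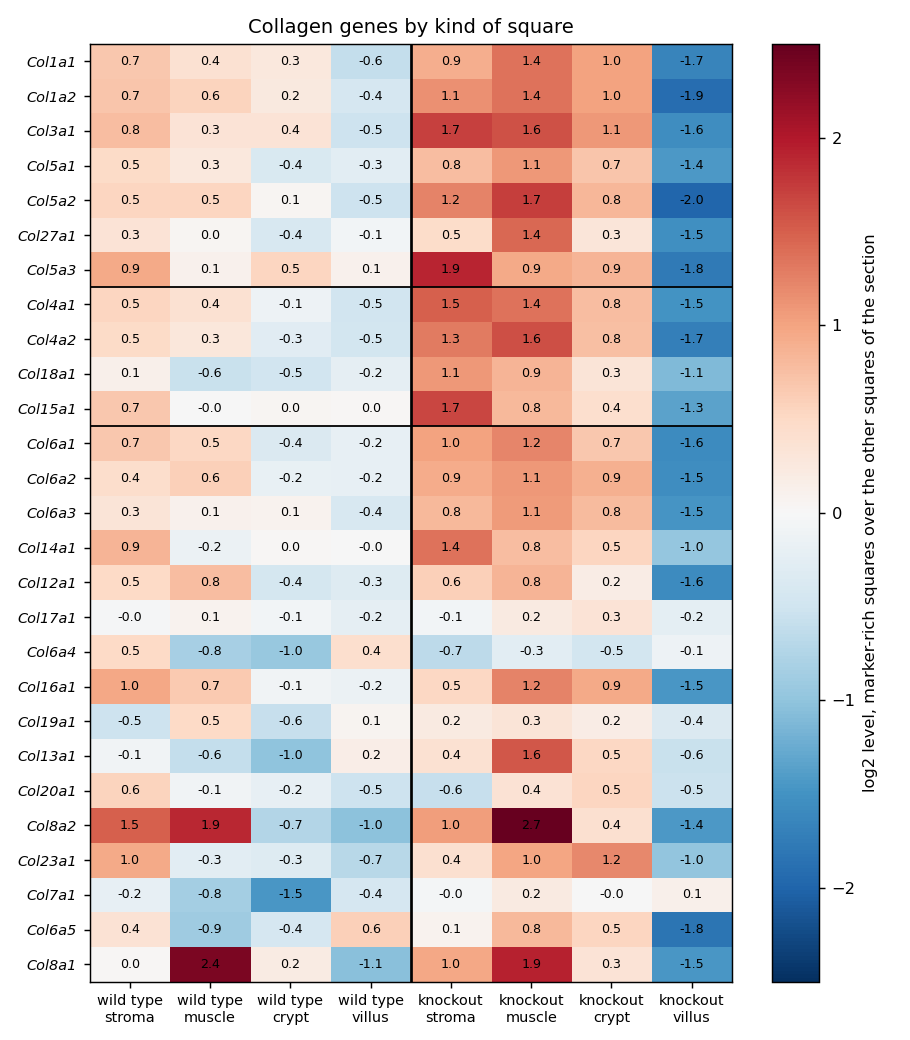
Log2 level of 27 collagen genes with 300 or more counts (rows) in marker-rich squares over all other squares of the same section (columns, 4 kinds in each section), red for higher and blue for lower. The right 4 columns, from the KO-labelled section, are red for most members in stroma and muscle and blue in villus squares, and the left 4 columns are paler; in the WT-labelled section, the basement membrane value in muscle squares and the fibrillar value in crypt squares flip sign with the setting.

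Members of different collagen classes led each kind of square. Among members with 50 or more counts in the section, those with the highest ratios in the stroma squares of the KO-labelled section were Col5a3 at 1.90 (1.47 to 2.32), Col3a1 at 1.72 (1.61 to 1.82) and Col15a1 at 1.67 (1.45 to 1.89). In the WT-labelled section they were Col16a1 at 0.98, Col23a1 at 0.95 and Col5a3 at 0.94, the last with an interval from −0.06 to 1.80 on 12 counts. In muscle squares Col8a1 stood out in both sections, at 2.35 (1.73 to 2.95) with 13.4 against 2.61 CPM in the WT-labelled section, and at 1.93 (1.39 to 2.44) with 6.29 against 1.65 CPM in the other. Col8a2 stood at 2.70 (2.41 to 2.98) in the muscle squares of the KO-labelled section, with 155 of its 472 counts there, and Col9a2 at 1.73. Col25a1 and Col12a1 followed Col8a1 in the WT-labelled section, at 0.97 (−0.55 to 2.20) and 0.77 (0.50 to 1.03). In crypt squares Col23a1 at 1.2003, Col3a1 at 1.08 and Col1a1 at 1.005 led in the KO-labelled section, and Col5a3 at 0.53, Col3a1 at 0.35 and Col1a1 at 0.27 in the other. In villus squares the highest ratios in the KO-labelled section were those of Col4a3 at 0.76 (0.00 to 1.45), Col25a1 at 0.29 and Col7a1 at 0.14, and in the other section those of Col6a5 at 0.60, Col6a4 at 0.41 and Col4a4 at 0.37.

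A few members were spread evenly. Col17a1 stood between −0.23 and 0.33 in all 8 kinds of square, and Col19a1 between −0.35 and 0.33 in those of the KO-labelled section. Spearman coefficients between members across squares were mostly higher in the KO-labelled section. Of the 171 pairs among the 19 members with 1000 or more counts, 147 had a higher Spearman coefficient there, with medians of 0.20 and, in the WT-labelled section, 0.066. Chains of one collagen were among them, with coefficients of 0.70 for Col1a1 with Col1a2 over 1340 squares against 0.39 over 825 squares, and of 0.53 against 0.41 for Col4a1 with Col4a2. These are descriptions in sparse counts of squares that share a library and differ in depth. Pairs of other genes are not given here, so whether the higher coefficients are particular to collagens was not tested.

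**Figure D4:**
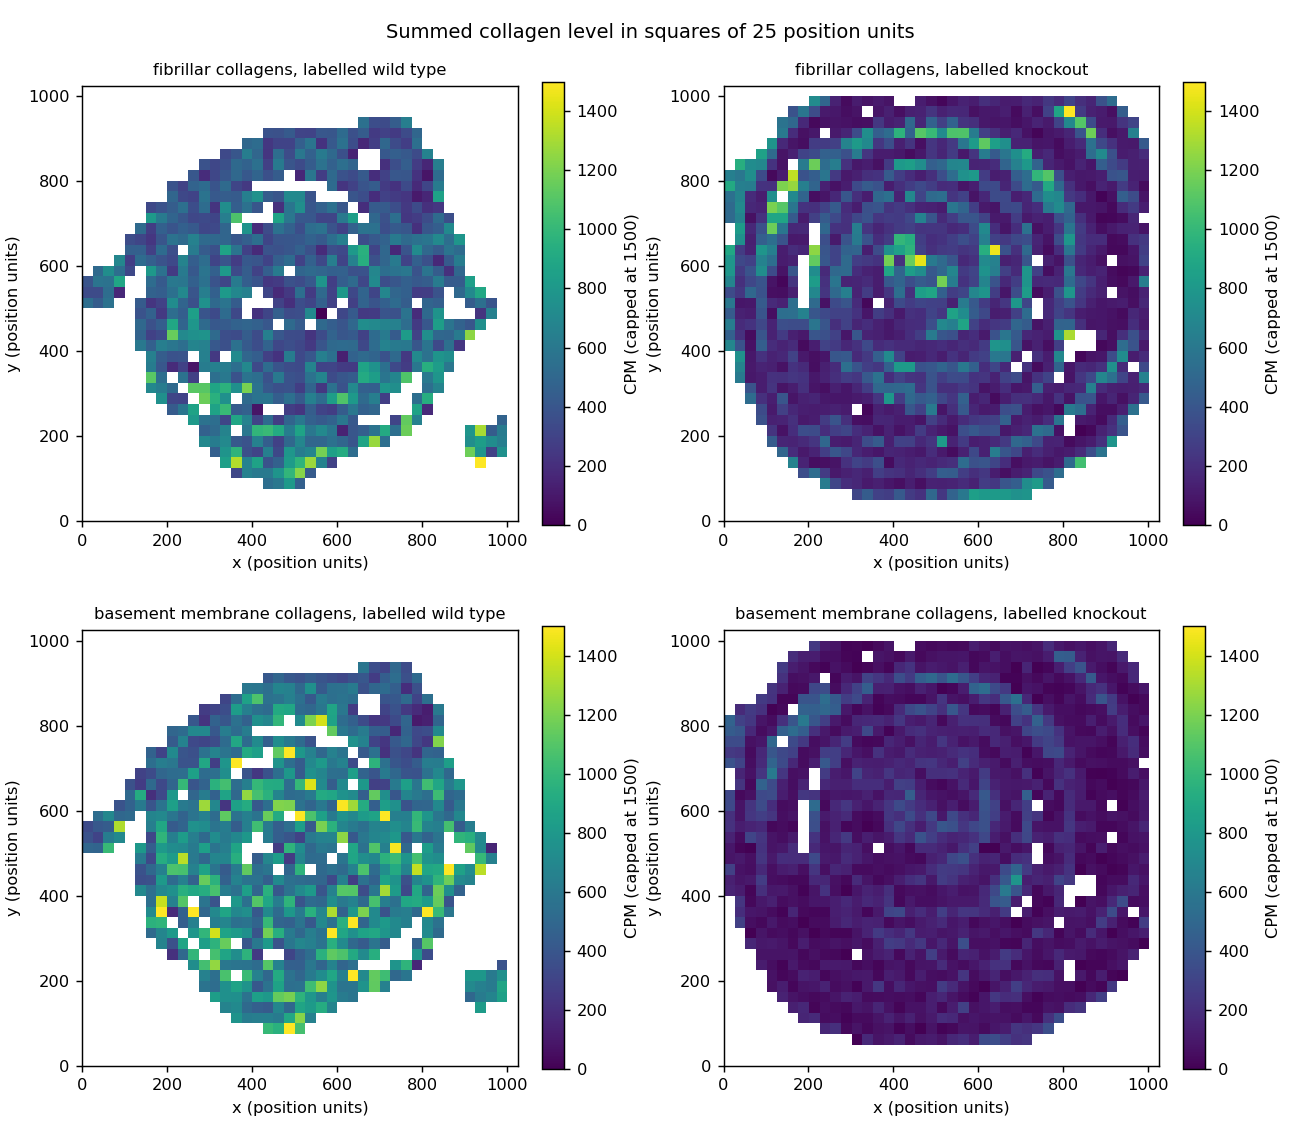
Summed level in CPM (colour, capped at 1500) of the fibrillar collagens (top) and the basement membrane collagens (bottom) in squares placed by position (axes in position units of unstated length), with the WT-labelled section on the left and the KO-labelled section on the right. In the KO-labelled section both groups follow winding bands, with a median over squares of 217 CPM for the fibrillar and 98.8 CPM for the basement membrane collagens, while in the WT-labelled section the medians are 462 and 627 CPM and the bands are less distinct.

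The collagen groups differed by unlike amounts between like-marked squares of the sections, where each mark is relative to its own section. Villus squares held 3148 CPM of villus markers in the WT-labelled section and 69935 CPM in the other. Crypt squares held 196115 and 19634 CPM of crypt markers. With a threshold over both sections, 0 villus squares of the WT-labelled section and 0 crypt squares of the other remained, so these 2 kinds were not alike. The summed basement membrane collagens, of which Col4a1, Col4a2 and Col18a1 made up most, were lower in the KO-labelled section in all 4 kinds of square and under every alternative that gave a value. The log2 ratios were −1.46 (−1.55 to −1.36) in stroma squares, −1.20 (−1.29 to −1.10) in muscle squares, −1.45 (−1.55 to −1.36) in crypt squares and −3.29 (−3.43 to −3.15) in villus squares. Of its members with 20 or more counts in the squares compared, 3 of 5 were at least 2-fold lower in stroma squares (14.8% of all genes) and 2 of 4 in muscle squares (9.44%). In crypt squares they were 2 of 4 (8.1%) and in villus squares 4 of 6 (38.5%). At least 2-fold higher were 0 in each kind, against 18.9%, 21.7%, 28.9% and 15% of all genes. Col15a1 stood at 0.23 (−0.20 to 0.67) in stroma and 0.14 (−0.37 to 0.67) in muscle squares, and Col4a4 at 0.86 (−0.93 to 3.27) in stroma squares on 3 and 17 counts, each with an interval that held 0. Fibrillar collagens stood at −0.35 (−0.44 to −0.27) in stroma, 0.08 (−0.00 to 0.16) in muscle, −0.05 (−0.12 to 0.02) in crypt and −1.89 (−2.005 to −1.77) in villus squares, and the first 3 of these took either sign over the alternatives, from −0.55 to 0.13, −0.27 to 0.27 and −0.58 to 0.18. Without squares rich in adipocyte markers the fibrillar ratio in stroma squares was 0.01 (−0.12 to 0.13), on 12 squares of the KO-labelled section. The other collagens stood at −0.64, −0.34, −0.07 and −1.70.

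**Figure D5:**
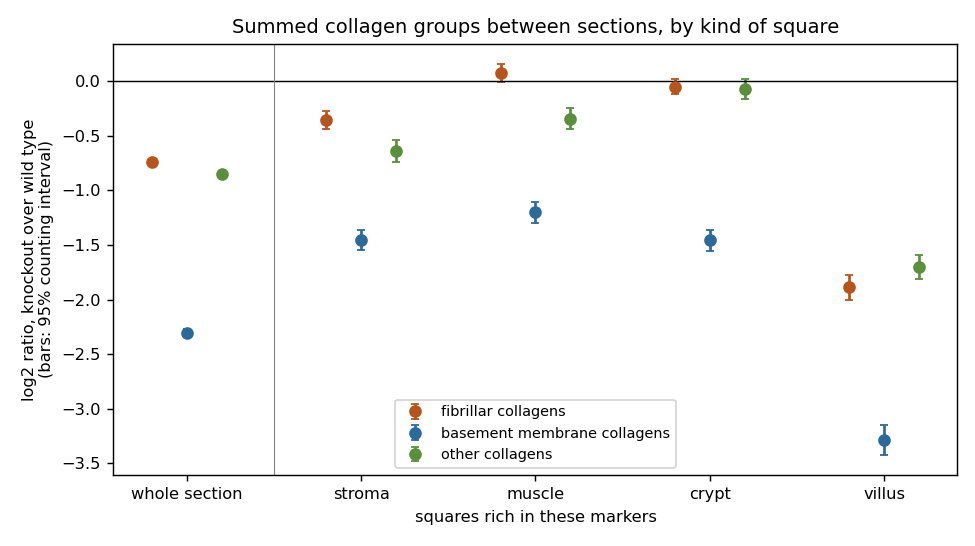
Log2 ratio (y axis, KO-labelled over WT-labelled, bars 95% counting intervals) of the summed fibrillar, basement membrane and other collagens in the whole sections and in like-marked squares (x axis). The basement membrane sum is the lowest in each kind of square, at −1.46, −1.20, −1.45 and −3.29, while the fibrillar values in stroma, muscle and crypt squares take either sign under other settings. Crypt and villus squares hold unlike levels of their own markers between the sections.

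Of the members with 20 or more counts in the squares of a kind, 11 of 29 were at least 2-fold lower in stroma squares (14.8% of all genes), 7 of 28 in muscle squares (9.44%), 4 of 28 in crypt squares (8.1%) and 20 of 29 in villus squares (38.5%). At least 2-fold higher were 3 in stroma (18.9%), 3 in muscle (21.7%), 3 in crypt (28.9%) and 1 in villus squares (15%). The 4 lower in crypt squares were Col13a1, Col18a1, Col4a1 and Col5a2. Those higher were Col8a2 in all 4 kinds, Col14a1 in stroma, muscle and crypt squares, Col19a1 in stroma and crypt squares, at 1.22 and 1.19, and Col6a5 in muscle squares, at 1.51. The Col6a5 value rested on 4 counts in the WT-labelled and 31 in the KO-labelled section (0.01 to 3.47). That of Col19a1 in stroma squares rested on 14 and 102 counts (0.41 to 2.14). Col18a1 was lower in every kind, at 228 against 31.8 CPM in stroma squares, 146 against 27.9 CPM in muscle squares, 157 against 20.1 CPM in crypt squares and 182 against 8.05 CPM in villus squares, log2 ratios of −2.84, −2.38, −2.96 and −4.50. Col13a1 stood at −3.42, −1.92, −2.46 and −4.49. Col4a1 stood at −1.38, −1.35, −1.39 and −3.14. Col5a2 stood at −1.44, −1.03, −1.33 and −3.42, while Col1a1 stood at −0.42, 0.24, 0.06 and −1.60 and Col6a3 at 0.20, 0.62, 0.41 and −1.24. Col14a1 was higher in stroma at 1.06 (0.66 to 1.48), in muscle at 1.504 (0.99 to 2.06) and in crypt squares at 1.11 (0.75 to 1.49), and stood at −0.22 (−0.65 to 0.23) in villus squares. Col8a2 stood at 2.05, 3.03, 3.52 and 2.11 in the 4 kinds, on 2 to 7 counts per kind in the WT-labelled section.

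In the WT-labelled section, Col18a1 and Col13a1 were not concentrated in stroma or muscle squares, at 0.12 and −0.56 for Col18a1 and −0.08 and −0.59 for Col13a1. The KO-labelled section differed, with Col18a1 at least 2-fold higher in stroma squares and Col13a1 at least 2-fold higher in muscle squares than in the other squares. Within the WT-labelled section both genes were higher in the 83 squares richest in neutrophil markers. Col18a1 stood there at 327 against 202 CPM, a log2 ratio of 0.70 (0.60 to 0.80), and Col13a1 at 65.2 against 20.8 CPM, a log2 ratio of 1.65 (1.41 to 1.88). In the 83 squares richest in endothelial markers the ratios were 0.79 (0.68 to 0.90) and 1.42 (1.15 to 1.69), and in the 83 richest in macrophage markers 0.63 (0.53 to 0.73) and 1.24 (0.98 to 1.496). In the 83 richest in adipocyte markers they were 0.65 (0.54 to 0.76) and 1.48 (1.21 to 1.74). Adipoq and Lep of that list were at 0 in this section, and most of its counts were of Fabp4 and Pnpla2, so these squares need not be rich in adipocytes. These sets of squares overlap, with 34 shared between the endothelial and neutrophil sets and 44 between the adipocyte and endothelial sets. The summed neutrophil, macrophage and endothelial markers were themselves lower in the KO-labelled section, while the summed adipocyte markers were 7.74 times higher there. At least 2-fold lower were 9 of 10 neutrophil, 8 of 10 macrophage and 10 of 14 endothelial markers (23.8% of all genes). Over the 4 parts, the summed neutrophil markers held 435 to 763 CPM in the WT-labelled section and 23.4 to 28.9 CPM in the other, the macrophage markers 564 to 732 and 134 to 189 CPM, and the endothelial markers 569 to 713 and 357 to 460.1 CPM. The part of these cell types in the difference of Col18a1 and Col13a1 was not tested. Levels of both genes in such sets of squares of the KO-labelled section are not given here.

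The enzymes and partners of the collagens were described from lists set for each step, and each count is to be read against the 23.8% of all genes that were at least 2-fold lower and the 15.4% that were higher. Of 19 genes of collagen synthesis and folding, 6 were at least 2-fold lower and 1 higher, with a median log2 ratio of −0.61. Their sum went the other way, at 797 and 1922 CPM, a log2 ratio of 1.27, with P4hb the most abundant. The lowest were Fkbp10, a prolyl isomerase of the endoplasmic reticulum, at −1.80 (23.4 and 6.74 CPM), and P3h1, a prolyl 3-hydroxylase, at −1.62 (7.88 and 2.56 CPM). The highest were P4hb, the disulfide isomerase subunit of prolyl 4-hydroxylase that also serves other secreted proteins, at 1.98 (423 and 1667 CPM), and the galactosyltransferase Colgalt2 at 0.72 (0.904 and 1.49 CPM). Of 15 genes that trim and crosslink collagen, 7 were at least 2-fold lower (23.8% of all genes) and 0 higher (15.4%). All 15 were below 0 (59.3% of all genes), with a median of −0.85. Lox and Loxl1, oxidases that start crosslinks, stood at −2.55 (17.6 and 3.01 CPM) and −2.18 (57.2 and 12.6 CPM), and Tgm2, a transglutaminase, at −1.06. The propeptidases Adamts14 and Bmp1 stood closest to 0, at −0.05 (−0.60 to 0.52) and −0.30.

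Partners of fibrils went both ways, with 5 of 14 at least 2-fold higher (15.4% of all genes), 5 lower (23.8%) and a median of −0.07. Their sum was 1645 and 713 CPM, a log2 ratio of −1.21. Thbs1 and Tnc, adhesion-modulating proteins of injured tissue, stood at −5.07 (481 and 14.3 CPM) and −3.31 (307 and 30.9 CPM). The small leucine-rich proteoglycan Ogn stood at 3.10 (2.23 and 19.2 CPM) and the fibulin Fbln1 at 1.95 (75.2 and 290.0 CPM), and Fbln1, Dcn, Lum and Mfap5 of this list are also stroma markers here. Of 19 basement membrane partners, 9 were at least 2-fold lower (23.8% of all genes) and 0 higher (15.4%), with a median of −0.59. The laminin chain Lama1 stood at −2.84 (9.89 and 1.38 CPM) and Nid1, which links laminin to type IV collagen, at −2.58 (72.3 and 12.1 CPM). The proteoglycan Agrn stood at 0.69 (51.6 and 83.5 CPM) and the laminin receptor chain Itga6 at 0.48 (134 and 186 CPM).

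Of 11 measured collagen receptors, 2 were at least 2-fold lower and 0 higher, with a median of −0.40, a share lower that is near that of all genes (23.8%). They were Mrc2, an uptake receptor for collagen, at −1.70, and the integrin chain Itga2 at −1.12. Itgb1, the partner chain of Itga2, stood at −0.45, and the discoidin domain receptors Ddr1 and Ddr2 at 0.29 and −0.26. Of 11 genes of collagen breakdown, 7 were at least 2-fold lower (23.8% of all genes) and 1 higher (15.4%), with a median of −2.08. The collagenases Mmp8 and Mmp13 stood at −6.18 (33.1 and 0.457 CPM) and −4.52 (66.6 and 2.90 CPM). The membrane-bound Mmp15 stood at 1.03, the gelatinase Mmp9 at 0.21 and the lysosomal protease Ctsb at 0.18. Mmp8 and Mmp9 are also among the 10 neutrophil markers used here, whose sum was 618 and 25.6 CPM, and the part of neutrophils in the difference of Mmp8 was not tested. With the median over all genes at −0.25, the medians of the breakdown and crosslinking lists lay farthest below it. By summed level the order differed, with fibril partners at −1.21, crosslinking at −1.10, basement membrane partners at −0.79 and breakdown at −0.59.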

How the data were processed

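The deposited values are counts per gene and barcode with barcode positions, taken as the authors made them. Per the labels, tissue was cut, captured on a barcoded array, sequenced as paired reads, and barcodes under tissue were kept by image alignment. The positions, of unit "other", are deposited with no stated length. The submitters' processing notes name GRCm38. Not given in the sources used here are the aligner, the counter, the strand setting and whether molecular identifiers were collapsed.

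Symbols repeated among the 54752 features (94) were summed. Counts were summed over a section or a set of squares and scaled to CPM. CPM carry exact Poisson intervals at 95%, and log2 ratios and shares carry exact conditional binomial or Clopper-Pearson intervals. Shared molecules from amplification are not known, so intervals cover counting error only. No test was made with 1 section per group. A count of 0 was set to 3 counts as a bound, with no ratio where that bound lay on the wrong side of 0. Ratio code was tested on simulated data. Python 3.11.15, numpy 2.4.6, scipy 1.17.1 and pandas 2.3.3 were used. Named genes are members with 1000 or more counts, the 4 highest and 4 lowest ratios with 50 or more counts, the 3 leaders of each kind of square, the genes next to the minimum of 20, and of each pathway list the 2 highest, 2 lowest and most abundant. Other members named were chosen after their values were seen. Members and lists were chosen with earlier results of these data known. Alternatives covered scaling, the total, barcodes, square size, the share of squares, marker weighting and minimum counts. Start windows came from RefSeq (GRCm38.p6).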

Additional observations from a re-analysis of the deposited data

How the results depend on the processing

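No alternative turned the direction of a summed whole-section difference, and 89 of the 154 main values under alternatives stayed within their counting interval or within 1.5 times. Of the 40 members, Col11a1, Col5a3, Col6a5 and Col6a6 took either sign. With 1 section per group nothing could be left out, and members with few counts are limited by depth. No paired analysis was possible because each group has 1 section. The cause of each shift was not tested. Crypt and villus ratios between sections, removal of adipocyte-rich squares within kinds of square, and the total without the 50 most abundant genes within squares were added after seeing the data. A threshold over both sections left 0 villus squares in the WT-labelled section and 0 crypt squares in the other, so it gave no value there. Numbers of members given below for a kind of square are those at least 2-fold higher there. The share of all genes was not computed for squares under these settings. A shift in such a number therefore cannot be read as particular to the collagens.

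Scaling by the median of ratios gave −1.06 for the family, −0.56 for fibrillar, −2.12 for basement membrane and −0.67 for other collagens. In like-marked squares it gave fibrillar −0.55 in stroma, −0.27 in muscle, −0.58 in crypt and −1.69 in villus, and basement membrane −1.65, −1.55, −1.98 and −3.09. Leaving the 50 most abundant genes out of the total gave −1.33, −0.83, −2.39 and −0.95 for the 4 sums. In squares it gave fibrillar −0.51 in stroma, −0.21 in muscle and −0.55 in crypt, and basement membrane −1.61, −1.49 and −1.96. Without adipocyte-rich squares the sums were −1.33, −0.87, −2.44 and −0.91, the fibrillar ratio in stroma squares was 0.0074, and 6 members were 2-fold higher in stroma squares of the WT-labelled section. In that section the squares left out were ranked by a list whose counts were mostly of Fabp4 and Pnpla2, so the tissue removed may differ between the sections.

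Squares of 50 units gave fibrillar −0.52 in stroma, −0.17 in crypt and −1.51 in villus, basement membrane −1.69, −1.61 and −2.85, and 9 members in stroma and 3 in crypt squares of the KO-labelled section. Squares of 15 units gave fibrillar −0.46 in stroma and 0.18 in crypt, basement membrane −1.57 in stroma, and 7 members in stroma and 5 in muscle squares of the WT-labelled section. The top 5% of squares gave fibrillar −0.19 in stroma, 0.17 in muscle and −2.09 in villus, basement membrane −1.24 in stroma and −1.05 in muscle, 6 members in stroma squares of the WT-labelled section and 1 in villus squares of the other. The top 20% gave fibrillar −0.51 in stroma and −0.16 in crypt, basement membrane −1.70 in stroma, −1.31 in muscle and −1.63 in crypt, 9 members in stroma and 1 in crypt squares of the KO-labelled section and 0 in villus squares of the other.

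Equal weight of markers gave fibrillar 0.13 and basement membrane −1.31 in stroma. A minimum of 100 counts gave 0 members in stroma, 1 in muscle and 0 in villus squares of the WT-labelled section. Proliferation markers in place of Paneth cell markers gave 1 member in crypt squares of the KO-labelled section. The threshold over both sections gave basement membrane −1.65 in stroma, and fibrillar 0.27 and basement membrane −1.50 in muscle, on 5 muscle squares of the WT-labelled section.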

Other observations

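Ratios of counts were also taken between chains of different collagens and between the type VI chains Col6a1 and Col6a2. Each ratio given here differed between the sections, with counting intervals that did not overlap. The type III to type I ratio, Col3a1 over Col1a1, was 0.550 (0.528 to 0.573) in the WT-labelled section and 0.471 (0.455 to 0.488) in the KO-labelled section, with parts of 0.496 to 0.571 and 0.376 to 0.525 that overlapped. Col18a1 over Col4a1 was 0.846 and 0.299, with parts of 0.814 to 0.882 and 0.261 to 0.349 that did not. Col6a1 over Col6a2 was 1.03 and 1.18, with parts of 0.962 to 1.13 and 1.13 to 1.27.

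In the 134 squares of the KO-labelled section richest in markers of enteric glia and neurons, Col9a2 stood at 2.48 (1.73 to 3.20) and Col11a1 at 2.14 (1.27 to 2.96) over all other squares, on 27 and 19 counts. In the 83 such squares of the WT-labelled section Col8a1 stood at 1.48 (0.80 to 2.12). Of the squares in the KO-labelled section, 61 lay in the top 10% by both muscle markers and markers of enteric glia and neurons. These 3 genes were chosen after their values were seen.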
